A study of Homo sapiens with 6 samples.

Results

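The genes described here are 55 long noncoding RNA genes whose symbols mark them as hosts of small RNAs, or that belong to the best known long noncoding RNAs. They were taken by name: symbols made of SNHG and a number (small nucleolar RNA host genes, 11 measured), symbols that open with MIR and end in HG (microRNA host genes, 36 measured), and 10 genes named singly, of which 8 were measured (GAS5, MALAT1, DANCR, EPB41L4A-AS1, CYTOR, PVT1, TUG1 and MEG3). The rule itself uses names and no measured value. They are 55 of the 19775 genes of the array that have at least 1 probe set assigned to them alone, and they are read by 105 probe sets (a probe set is the group of short probes whose combined signal gives a single value). NEAT1 and H19 were named by the rule too, but each shares its probe sets with other symbols and was not analysed here. In all, 28 symbols that meet the rule were found only on such shared probe sets. They are outside the 55, so the 55 are only a part of the genes that the rule names. By gene identifier 54 of the 55 were found in the RefSeq gene table, where 53 are long noncoding RNAs and TUG1 is listed as protein-coding. SNHG24 was not matched.

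The samples were 6 cultures of HT29, an established human colorectal adenocarcinoma line. For each, 300000 cells were plated on a 100 mm plate in F12 medium that held 7% serum. In 3 of them a polyphenolic cocoa extract was given at 500 µg for 24 h, and the other 3 were controls, which the titles call untreated and the protocol says received saline. The labels give no volume for the extract, and do not say whether the 3 cultures of a group were set up on separate days. The p-values therefore measure the spread between these cultures, which may be technical. HT29 is a single tumour line, and bulk RNA from it cannot tell fewer cells of a type apart from less RNA per cell.

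Small nucleolar RNAs guide the chemical modification of ribosomal RNA, and in animals most of them are cut out of introns of a longer host transcript. MicroRNAs are likewise cut from longer primary transcripts, and lower the translation and stability of messenger RNAs that pair with their seed, the bases at positions 2 to 8. The spliced RNA left of a host gene often has no long reading frame. For some hosts, GAS5 being the textbook case, it is removed by nonsense-mediated decay during translation, so its level depends on transcription and on translation alike. Many small nucleolar RNA hosts start transcription at a run of pyrimidines, the 5′ terminal oligopyrimidine (TOP) motif that is also typical of ribosomal protein genes.

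The promoters of SNHG17 and DANCR are shown because these were the members with the lowest adjusted p-values, and the only members that changed by at least 1.5-fold. Each sequence is written along the transcribed strand, from 250 bases before the RefSeq start to 50 bases after it (build GRCh38.p14), with the pyrimidine run at the start in capitals.
SNHG17, chr20:38435279-38435578, minus strand: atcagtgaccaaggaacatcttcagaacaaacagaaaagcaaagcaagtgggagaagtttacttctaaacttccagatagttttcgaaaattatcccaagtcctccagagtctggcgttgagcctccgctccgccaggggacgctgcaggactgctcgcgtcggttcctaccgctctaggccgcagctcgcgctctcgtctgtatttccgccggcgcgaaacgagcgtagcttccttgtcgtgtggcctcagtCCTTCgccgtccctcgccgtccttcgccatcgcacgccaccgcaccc
DANCR, chr4:52712144-52712443, plus strand: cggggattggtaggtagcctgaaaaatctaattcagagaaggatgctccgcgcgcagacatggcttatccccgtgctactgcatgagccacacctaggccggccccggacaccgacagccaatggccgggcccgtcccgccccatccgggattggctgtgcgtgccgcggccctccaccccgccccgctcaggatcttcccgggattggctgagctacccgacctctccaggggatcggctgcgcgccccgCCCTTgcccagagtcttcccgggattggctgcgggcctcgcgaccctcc

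For the 5 other changed hosts and for SNHG4, the member with the largest difference that did not pass the test, the bases around the start are given, 10 before and 20 after it. SNHG19, MIRLET7BHG and MIR924HG fell with cocoa, and SNHG28 and MIR34BHG rose. MIR924HG, SNHG28 and MIR34BHG have no such run.
SNHG19, chr16:2155339-2155368, minus strand: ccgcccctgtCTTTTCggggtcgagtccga
MIRLET7BHG, chr22:46085987-46086016, plus strand: cctgtgcggCTTCTTTCaactcgatgagag
MIR924HG, chr18:39751976-39752005, minus strand: tttcttgtccaaaggtaggaatcgtaagag
SNHG4, chr5:139274091-139274120, plus strand: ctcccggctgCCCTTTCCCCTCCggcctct
SNHG28, chr1:159855018-159855047, minus strand: cccgcctgttgttttccacagagaggacgc
MIR34BHG, chr11:111510592-111510621, plus strand: tagtaactgcaggccaaatcaacagcaacc

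The motif searched was a C followed by at least 4 bases that are each C or T, beginning within 5 bases of the annotated start, on the transcribed strand alone. RefSeq promoters were found for 43 of the 55 members, and 16 of these (37.2%) held it. Of the 13 members with a gene that RefSeq labels small nucleolar RNA inside their span 7 held it (53.8%). Of the 30 other members 9 did (30.0%). The share was 21.1% of all 27305 promoters and 74.6% of 63 ribosomal protein genes. The E-box CACGTG, which reads the same on both strands and does not overlap the first motif in its letters, lay in the promoter of 1 member, TUG1 (2.33%), against 7.43% of all promoters. A match describes these letters and is not a site of binding.

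For each changed microRNA host the mature microRNAs of its best known or name-giving genes are given next, not all its products, with the seed in capitals. The array read the host transcripts and not these products. The let-7 pair share a seed, which 11 mature names of the table carry, and the seed of miR-34b-5p is carried by 3 mature names.
hsa-let-7a-5p, within MIRLET7BHG, chr22:46112752-46112773: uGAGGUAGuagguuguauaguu
hsa-let-7b-5p, within MIRLET7BHG, chr22:46113691-46113712: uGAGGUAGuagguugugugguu
hsa-miR-34b-5p, within MIR34BHG, chr11:111512950-111512972: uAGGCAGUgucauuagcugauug
hsa-miR-924, within MIR924HG, chr18:39622153-39622172, minus strand: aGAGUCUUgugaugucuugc

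The values are log2 expression values that the authors centred, so that the 6 arrays of any probe set have 0 as their median. A value of 0.30 means 0.30 above that median, no gene can be ranked by level, and whether a gene was above background is unknown. A gene's value is the mean of its probe sets, and a difference is cocoa minus control on the log2 scale. Cocoa arrays 2 and 3 stood apart on 2 array-wide readings. The signal of the 18S ribosomal RNA probe sets was −1.12 to 0.51 on the controls and on cocoa array 1 −0.51, but 3.31 on cocoa array 2 and 1.40 on cocoa array 3. The 5′ minus 3′ signal of the control transcripts was 0.009 to 0.033 on the controls and cocoa array 1, −0.259 on cocoa array 2 and −0.052 on cocoa array 3. Of the 10 colon epithelial markers, 2 rose with cocoa (CDH17 by 0.56 and GPA33 by 0.24) and 8 did not pass the test, and of the 7 fibroblast markers 0 passed in limma (0 at unadjusted p under 0.05 as well). Of 6 leukocyte markers only CD14 changed, at 0.75 above control. The centred table cannot show whether these markers were present or absent.

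Of the 55 host genes, 7 changed with cocoa extract, 5 of them lower and 2 higher, at an adjusted p under 0.05 in limma (Benjamini-Hochberg adjustment over all 19775 genes). SNHG17, DANCR, SNHG19, MIRLET7BHG and MIR924HG fell, and SNHG28 and MIR34BHG rose. That is 12.7% of the members, beside 13.5% of all genes tested. Lower values were found for 9.09% of the members and 6.12% of all genes, and higher values for 3.64% and 7.36%. The median difference of the members was −0.04 and that of all genes −0.01. Among the 2605 other RefSeq long noncoding RNA genes on the array 108 passed the test (4.15%), 64 of them higher and 44 lower. The changed share of the host genes was thus near that of all genes. The count of 7 was 3 without control array 2, 3 without cocoa array 2, 4 without control array 3, and 2 with the 18S signal as a covariate or without cocoa arrays 2 and 3.

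The control and cocoa arrays did not overlap in 16 members (29.1%), 12 of them lower and 4 higher, beside 32.5% of all genes (17.0% lower and 15.4% higher). In the 12 lower ones cocoa array 2, the array with the highest 18S signal, had the lowest value in 7, array 3 in 3 and array 1 in 2. Over all 3370 genes that were lower without overlap, array 2 was lowest in 47.9%. With the 5′ minus 3′ signal as a covariate SNHG17 (adjusted p = 0.00967), DANCR (0.00507) and MIR924HG (0.0482) passed the test in limma. MIRLET7BHG (0.0822), MIR34BHG (0.0948), SNHG28 (0.105) and SNHG19 (0.172) did not. Values with the 18S signal as a covariate, and without single arrays, are given with each gene.

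**Figure D1:**
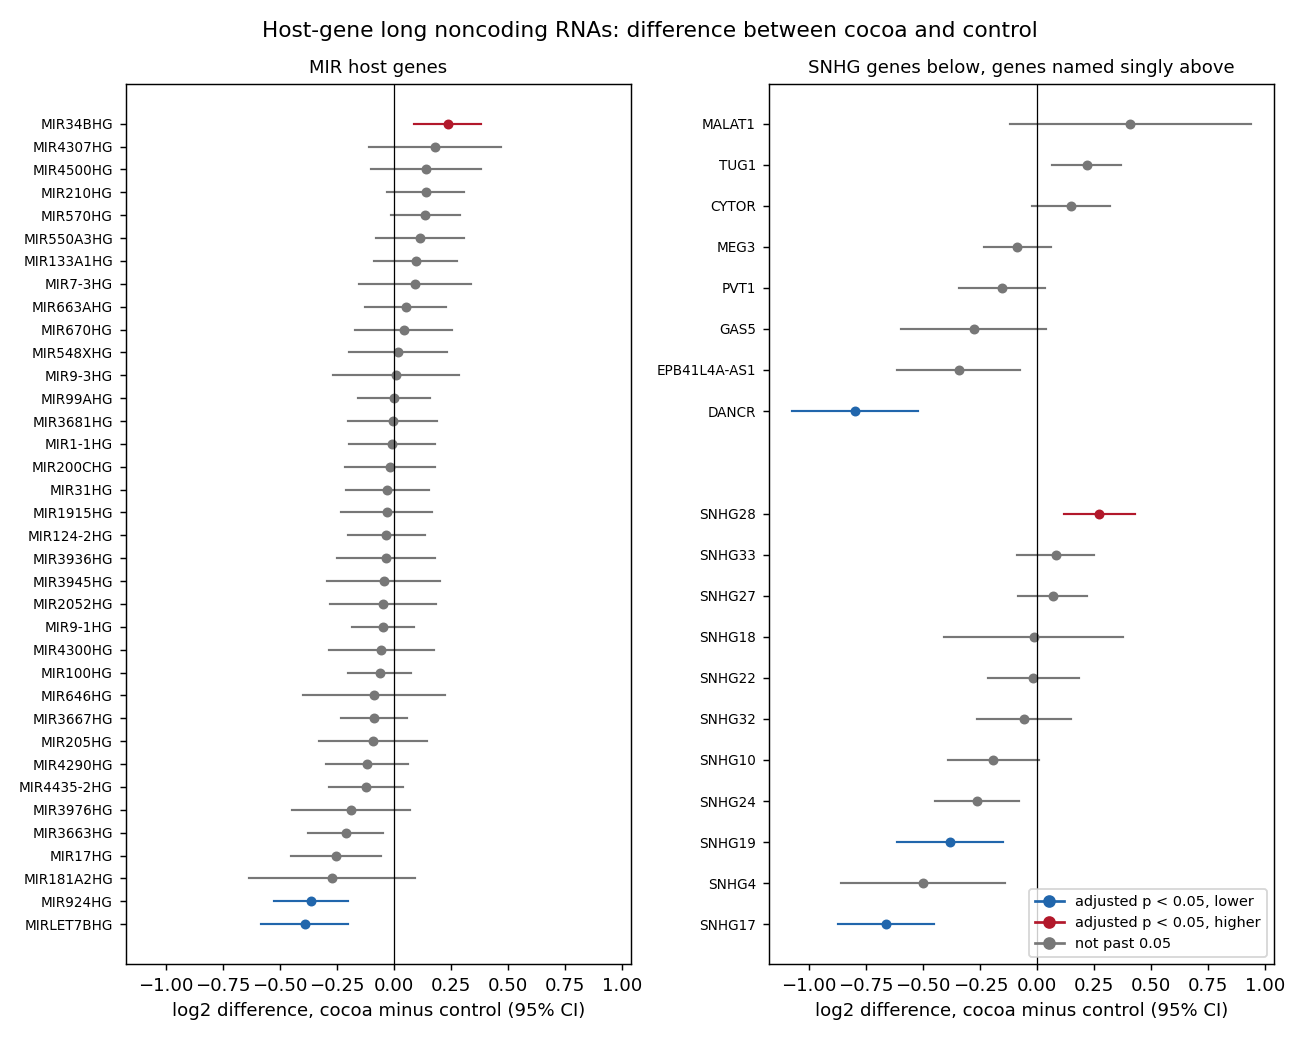
The log2 difference (cocoa minus control, horizontal axis) of each of the 55 host genes with its 95% interval, ordered by difference. DANCR (−0.80) and SNHG17 (−0.66) lie farthest below 0, and the intervals are not adjusted for the number of genes.

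The largest changes were in hosts of small nucleolar RNAs. SNHG17 spans the SNORA71 group, whose members guide pseudouridine formation in ribosomal RNA. Its values were 0.22, 0.32 and 0.35 on control arrays 1 to 3 and −0.26, −0.57 and −0.27 on cocoa arrays 1 to 3. Every cocoa array lay below every control array, and cocoa array 2 was lowest. The difference was −0.66 (SE 0.0933, 95% interval −0.87 to −0.45, adjusted p = 0.0022 in limma), a 1.58-fold fall. Both of its probe sets fell, by 0.62 (adjusted p = 0.0104) and by 0.70 (adjusted p = 0.00615). The probe set with the larger fall has the suffix _s_at, which marks probes shared by several transcripts, and the other does not. SNHG17 also passed the test with the 18S signal as a covariate (−0.55, adjusted p = 0.0204) and with any single array left out.

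DANCR carries SNORA26 and the microRNA gene MIR4449 within its span, and is known as a long noncoding RNA that holds back differentiation in epidermal progenitors. It read 0.37, 0.31 and 0.24 in the controls and −0.24, −0.79 and −0.46 with cocoa. The groups were far apart, again with cocoa array 2 lowest, and cocoa array 1, the highest of the 3, also lay below all controls. The difference was −0.80 (SE 0.123, 95% interval −1.08 to −0.52, adjusted p = 0.00335 in limma), a 1.74-fold fall that rests on a single probe set. DANCR passed the test with the 18S signal as a covariate (−0.58, adjusted p = 0.0125) and with any single array left out. SNHG17 and DANCR were the only members of the 55 that changed by at least 1.5-fold, which 2.26% of all genes did.

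SNHG19, the host of SNORD60, read 0.14, 0.09 and 0.27 in the controls and −0.12, −0.45 and −0.09 with cocoa. The groups did not overlap, but cocoa arrays 1 and 3 lay close under the controls and array 2 well below them. The difference was −0.38 (SE 0.103, 95% interval −0.62 to −0.15, adjusted p = 0.0384 in limma). Its only probe set is of the kind whose probes may bind other transcripts (suffix _x_at), so the value is uncertain. It did not pass with the 18S signal as a covariate (−0.24, adjusted p = 0.23) and passed in 2 of the 6 fits that leave out 1 array, those without cocoa array 1 or cocoa array 3 (adjusted p over the 6 from 0.0388 to 0.122).

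SNHG28 was the SNHG gene that rose. Its values were −0.08, −0.19 and −0.27 in the controls and 0.09, 0.11 and 0.08 with cocoa, so that the cocoa arrays were nearly equal and the controls spread more. The difference was 0.27 (SE 0.0689, 95% interval 0.12 to 0.43, adjusted p = 0.0303 in limma), a 1.21-fold rise. It passed in 2 of the 6 fits with 1 array left out, those without control array 1 or cocoa array 1 (adjusted p over the 6 from 0.0356 to 0.112), and it did not pass with the 18S covariate (adjusted p = 0.115).

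**Figure D2:**
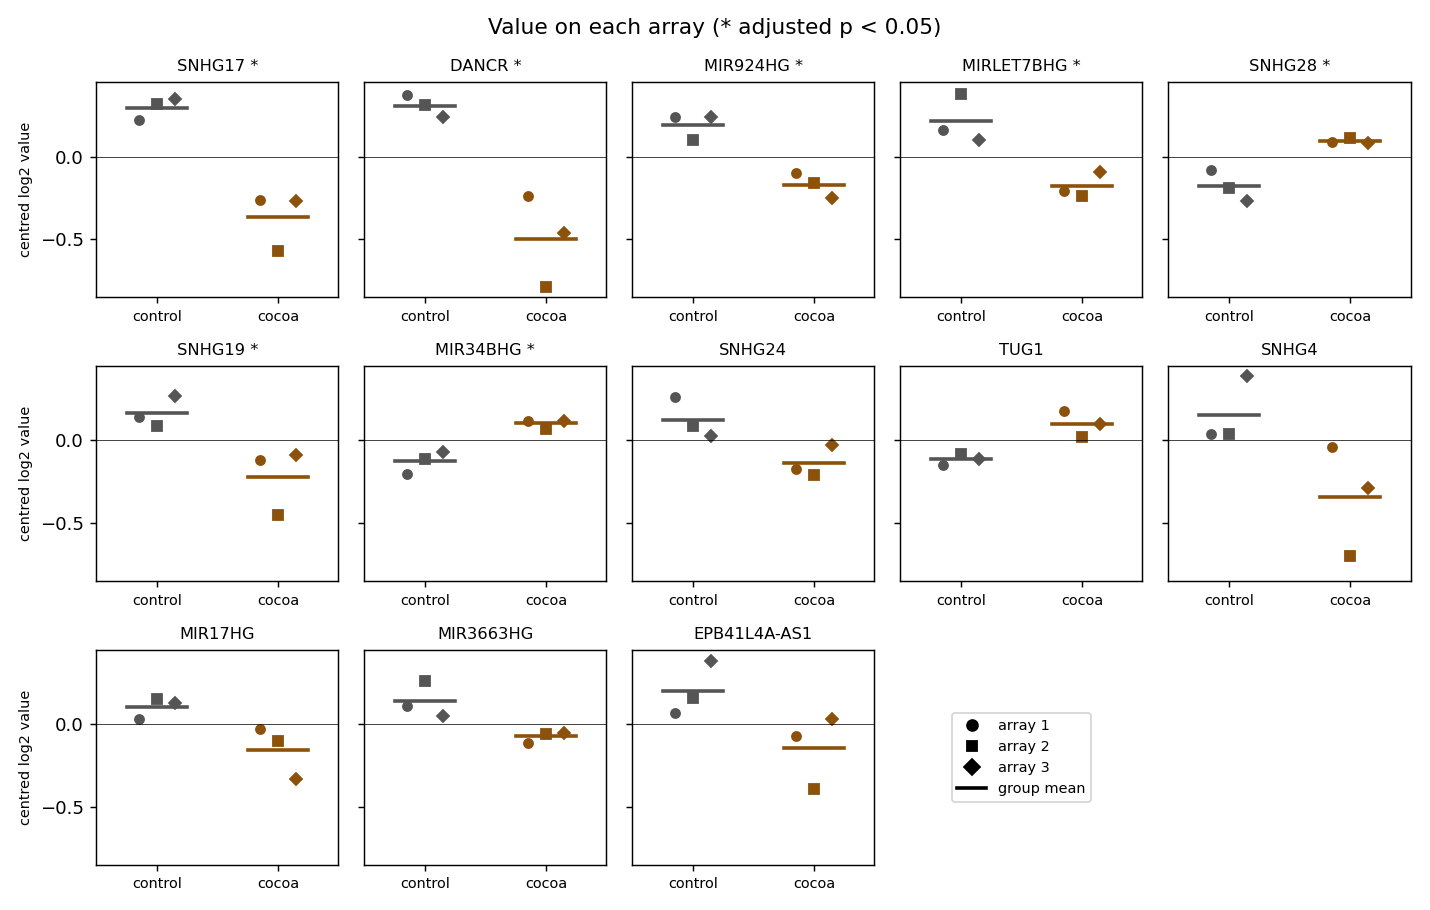
Centred log2 values of each of the 6 arrays (vertical axis) for 13 of the 16 host genes whose groups did not overlap, those with the lowest p. In DANCR the controls lie at 0.24 to 0.37 and the cocoa arrays at −0.79 to −0.24, and in SNHG4 cocoa array 2 (−0.70) lies well below the other cocoa arrays.

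The other small nucleolar RNA hosts did not pass the test, and several had a low value on cocoa array 2. SNHG4, which spans SNORA74A, read 0.04, 0.04 and 0.39 in the controls and −0.04, −0.70 and −0.29 with cocoa. Its difference was −0.50 (SE 0.16, adjusted p = 0.0721), the third in size among the members. The groups did not overlap, but cocoa array 1 was only slightly below control arrays 1 and 2. GAS5, which carries many small nucleolar RNAs and is known for growth arrest, read −0.08, 0.08 and 0.41 in the controls and −0.14, −0.37 and 0.08 with cocoa. Its groups overlapped and the difference was −0.28 (SE 0.141, adjusted p = 0.249). SNHG24 was not matched to RefSeq and counts as a host here by its symbol alone. It read 0.26, 0.09 and 0.03 against −0.17, −0.21 and −0.03, a difference of −0.26 (SE 0.082, adjusted p = 0.0653) without overlap.

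EPB41L4A-AS1, the host of SNORA13, read 0.07, 0.16 and 0.38 in the controls and −0.07, −0.39 and 0.03 with cocoa (difference −0.34, SE 0.12, adjusted p = 0.0951). Its probe sets disagreed. One fell by 0.70 (SE 0.174, adjusted p = 0.0458 over all probe sets), with controls at 0.11, 0.40 and 0.69 and cocoa arrays at −0.11, −0.62 and −0.16. The other showed a difference of 0.01 (adjusted p = 0.977). The first has the suffix _s_at, which marks probes shared by several transcripts, and without such probe sets the gene's difference was 0.009 (adjusted p = 0.975), so that its direction is not settled. EPB41L4A, the protein-coding gene that overlaps it in RefSeq, did not pass the test (0.06, adjusted p = 0.643).

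The remaining SNHG genes were SNHG10 at −0.19 (adjusted p = 0.197), SNHG18 at −0.02, SNHG22 at −0.02, SNHG27 at 0.07, SNHG32 at −0.06 and SNHG33 at 0.08. Among the 11 SNHG genes 2 fell (18.2%), 1 rose (9.09%) and 8 did not pass. By the RefSeq table, which gives no strand, 13 members had a small nucleolar RNA gene inside their span. Of these 3 fell (SNHG17, DANCR and SNHG19, 23.1%), 1 rose (SNHG28, 7.69%) and 9 did not pass. Over all genes 6.12% fell and 7.36% rose. SNHG28, MIR31HG and MIR3681HG were counted only through an entry that has no small nucleolar RNA name. SNHG10 overlaps SCARNA13 and SNHG22 overlaps SCARNA17, which RefSeq labels ncRNA, so neither was counted.

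Among the 36 microRNA hosts 2 fell (5.56%) and 1 rose (2.78%), while 33 did not pass the test, and the median difference was −0.03. Of all genes 6.12% fell and 7.36% rose. RefSeq places a microRNA gene inside the span of 35 of them. MIRLET7BHG, the host of let-7a-3 and let-7b, microRNAs known for restraining growth-promoting genes, read 0.16, 0.38 and 0.10 in the controls and −0.21, −0.24 and −0.09 with cocoa. All cocoa arrays lay below all controls, and control array 2 was highest. The difference was −0.39 (SE 0.0852, 95% interval −0.59 to −0.20, adjusted p = 0.0158 in limma), with −0.41 and −0.38 in its separate probe sets (adjusted p = 0.0341 and 0.0706). It passed in 4 of the 6 fits that leave out 1 array. Without control array 2 the adjusted p was 0.0637, without cocoa array 2 it was 0.0544, and with the 18S covariate it was 0.0637.

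MIR924HG, the host of miR-924, read 0.24, 0.10 and 0.24 in the controls and −0.10, −0.16 and −0.25 with cocoa. Here cocoa array 3 and not array 2 was lowest. The difference was −0.36 (SE 0.0713, 95% interval −0.53 to −0.20, adjusted p = 0.0101 in limma), and it passed in all 6 fits with 1 array left out (adjusted p from 0.013 to 0.0448). With the 18S covariate the adjusted p was 0.0774. MIR924HG is read by a single probe set.

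MIR34BHG, the host of miR-34b and miR-34c, which are known as targets of p53, was the microRNA host that rose. It read −0.20, −0.11 and −0.07 in the controls and 0.12, 0.07 and 0.12 with cocoa. The groups were apart by a small gap. The difference was 0.23 (SE 0.0646, 95% interval 0.09 to 0.38, adjusted p = 0.0421 in limma), the smallest of the 7 changed genes, and it did not pass in any of the 6 fits with 1 array left out (adjusted p from 0.0691 to 0.144) or with the 18S covariate (adjusted p = 0.135).

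Among the microRNA hosts that did not pass, MIR17HG, the transcript of a microRNA cluster that MYC is known to drive, read 0.03, 0.15 and 0.13 in the controls and −0.03, −0.10 and −0.33 with cocoa. Its difference was −0.26 (SE 0.0874, adjusted p = 0.0896), and the groups did not overlap. MIR181A2HG, at −0.27 (SE 0.162, adjusted p = 0.336), overlapped: the controls ran from −0.20 to 0.35 and cocoa array 2 was at −0.49, with the other cocoa arrays at 0.00. MIR3663HG was at −0.21 (adjusted p = 0.092), MIR4307HG at 0.18 (adjusted p = 0.434), MIR3976HG at −0.19 (adjusted p = 0.347), MIR570HG at 0.14 and MIR210HG, the host of the hypoxia-linked miR-210, at 0.14 (adjusted p = 0.284). Hosts of microRNAs with known roles in epithelia lay near 0: MIR200CHG (miR-200c and miR-141) at −0.02 and MIR31HG at −0.03. MIR99AHG and MIR100HG, each host of a let-7 gene and of a miR-125b gene, were at 0.00 and −0.06. The other hosts were MIR1-1HG, MIR124-2HG, MIR133A1HG, MIR1915HG, MIR2052HG, MIR205HG, MIR3667HG, MIR3681HG, MIR3936HG, MIR3945HG, MIR4290HG, MIR4300HG, MIR4435-2HG, MIR4500HG, MIR548XHG, MIR550A3HG, MIR646HG, MIR663AHG, MIR670HG, MIR7-3HG, MIR9-1HG and MIR9-3HG. Of the 48 members of any kind that did not pass, 28 had a difference under 0.1 in size. The 95% interval (not adjusted) excluded 0 in 6 of the 48 and included it in 42. In 26 of the 55 members it lay within 0.3 of 0.

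Of the 8 genes named singly DANCR fell (12.5%, beside 6.12% of all genes that fell) and 7 did not pass the test. MALAT1, which is retained in nuclear speckles, read −0.74, −0.09 and 0.10 in the controls and 0.58, −0.23 and 0.14 with cocoa. Control array 1 was low and cocoa array 1 high, and the groups overlapped. Its difference of 0.41 was the fourth largest of the members but had the widest error (SE 0.234, adjusted p = 0.313). All 12 of its probe sets showed higher cocoa means, by 0.21 to 0.85. One of them rose past the test (0.85, SE 0.148, adjusted p = 0.0119 over all probe sets), with controls at −0.76, −0.36 and −0.24 and cocoa arrays at 0.60, 0.33 and 0.24. It has the suffix _s_at, and all but a single probe set of MALAT1 end in _s_at or _x_at. Their probes may be shared with other transcripts, so these values are uncertain. The probe set without either suffix was at 0.31 (adjusted p = 0.487 in limma).

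TUG1, a long noncoding RNA linked to gene silencing, read −0.15, −0.08 and −0.11 in the controls and 0.18, 0.02 and 0.10 with cocoa. The groups did not overlap. Its difference was 0.22 (SE 0.0676, adjusted p = 0.0657) as the mean of 6 probe sets. Of these 4 rose, by 0.34, 0.40, 0.34 and 0.55 (adjusted p from 0.013 to 0.0412 over all probe sets), 1 was at 0.11 (adjusted p = 0.596) and 1 was at −0.44 (SE 0.202, adjusted p = 0.251), with cocoa array 2 at −0.78. With the median of the probe sets in place of the mean the difference was 0.33 and TUG1 passed the test (adjusted p = 0.0128). The RefSeq table did not tell which transcript form each probe set reads.

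MEG3, an imprinted transcript, was at −0.09 (adjusted p = 0.452), with 10 probe sets between −0.21 and 0.05, of which 0 passed in limma (0 at unadjusted p under 0.05). PVT1, a neighbour of MYC, was at −0.15 (adjusted p = 0.288). CYTOR was at 0.15 (adjusted p = 0.25) and MIR4435-2HG, its near-identical copy, at −0.12 (adjusted p = 0.318). Probes may not separate these copies, so both values are uncertain.

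**Figure D3:**
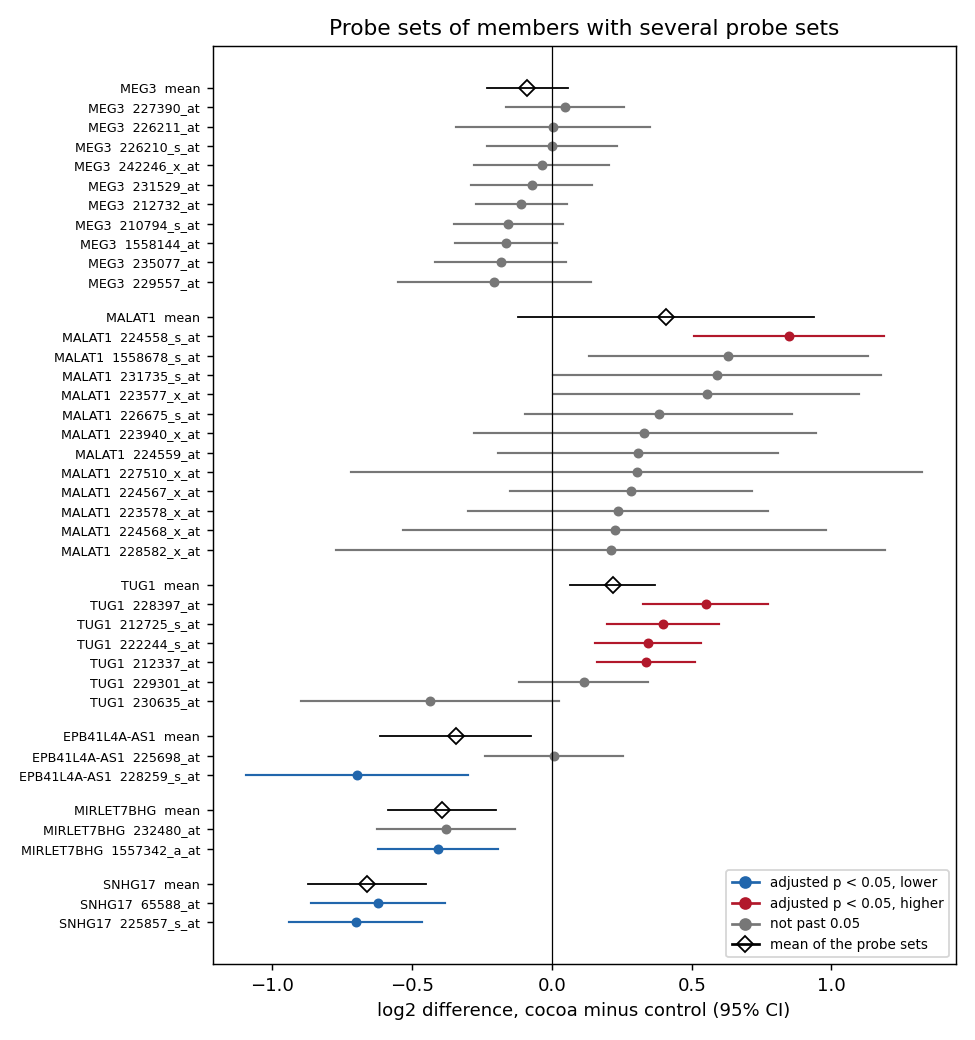
The log2 difference of each probe set (horizontal axis) of 6 members with several probe sets, with 95% intervals and the mean of the gene as a diamond. Blue and red mark lower and higher probe sets past the test. The 12 probe sets of MALAT1 lie between 0.21 and 0.85, and the 6 of TUG1 run from −0.44 to 0.55.

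Over all 105 member probe sets 11 changed, 6 lower and 5 higher (10.5%), beside 7.98% of all 54613 probe sets (3.30% lower and 4.68% higher). In this fit of single probe sets SNHG28 (adjusted p = 0.0753), SNHG19 (0.0766) and MIR34BHG (0.1), each read by 1 probe set, did not pass in limma. In 8 of the 22 members read by several probe sets these all differed in one direction, in 14 their signs were mixed, and in 5 at least 1 of them passed the test. For the 33 members with 1 probe set no such comparison could be made.

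Genes of the pathways in which hosts take part were then counted from lists that were put together for this purpose. The lists were chosen with earlier results of these data known, so their counts are descriptive and give no independent support. Of 31 measured protein-coding genes that carry small nucleolar RNAs in their introns, 7 fell and 0 rose in limma (11 of 31 in either direction at unadjusted p under 0.05). They included EIF5 (−0.47, SE 0.0908, adjusted p = 0.0099), RCC1 (−0.45, SE 0.074, adjusted p = 0.00445), WDR43 (−0.39, adjusted p = 0.00745) and RABGGTB (−0.29). EIF5 is a translation initiation factor and RCC1 the exchange factor of the nuclear transport GTPase Ran. The 7 are 22.6% of the list, beside 6.12% of all genes that fell. The list's median was −0.13. The count was 3 without any one of control arrays 1, 2 and 3 and cocoa arrays 2 and 3, and 1 with the 18S covariate.

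Of 17 measured proteins of the small nucleolar ribonucleoprotein particle and its assembly, 5 fell and 0 rose in limma (10 at unadjusted p under 0.05). FBL, the methyltransferase fibrillarin, fell by 0.46 (SE 0.0629, adjusted p = 0.00194), TCOF1, a nucleolar scaffold, by 0.46 (SE 0.0698, adjusted p = 0.00306), SHQ1, an assembly factor, by 0.34 (adjusted p = 0.0115) and NUFIP1 by 0.33. In FBL the controls were 0.24, 0.24 and 0.20 and the cocoa arrays −0.20, −0.30 and −0.21, without overlap. The 5 are 29.4% of the list, beside 6.12% of all genes that fell. The list's median was −0.19. The count was 3 without control array 1 or control array 2, and 2 with the 18S covariate.

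Of 14 measured factors of nonsense-mediated decay 3 fell, DHX34 by 0.36, SMG9 by 0.29 and EIF4A3 by 0.26, and 0 rose in limma (5 at unadjusted p under 0.05). The 3 are 21.4% of the list, beside 6.12% of all genes that fell. The count was 1 without control array 1, control array 2 or cocoa array 2, 2 without cocoa array 3, and 0 with the 18S covariate in limma (5 at unadjusted p under 0.05). UPF1, the central helicase, was at −0.08 (adjusted p = 0.537) and UPF2 at −0.05. Of 19 paraspeckle proteins, which assemble on NEAT1, 7 fell and 0 rose (11 at unadjusted p under 0.05), RBM14 by 0.47 (adjusted p = 0.0468), SRSF10 by 0.40 (adjusted p = 0.013), NUDT21 by 0.35 and TARDBP by 0.28. These 7 are 36.8% of the paraspeckle list. The array mean of this list was −0.255 on cocoa array 2 and 0.0 on cocoa array 1, and with the 18S covariate 0 of the 19 passed in limma (3 at unadjusted p under 0.05). Without control array 2, or without control array 3, 0 passed in limma (9 at unadjusted p under 0.05 each time). The count was 1 without control array 1 or cocoa array 2, and 2 without cocoa array 3.

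Of 16 microRNA processing and effector genes 2 rose, TNRC6B by 0.42 (adjusted p = 0.00855) and AGO4 by 0.42 (adjusted p = 0.00407), and 0 fell in limma (4 of 16 in either direction at unadjusted p under 0.05). The 2 are 12.5% of the list, near the 13.5% of all genes that passed the test. The count was 2 with the 18S covariate and 4 without cocoa array 1. TNRC6B and AGO4 act in the silencing complex. The cleaving enzymes DROSHA (−0.12, adjusted p = 0.301) and DICER1 (−0.18, adjusted p = 0.196) did not pass. Of 12 targets of p53, 4 rose: CDKN1A, the cell cycle inhibitor p21, by 0.46 (SE 0.0946, adjusted p = 0.013), RRM2B by 0.42, TP53INP1 by 0.39 and XPC by 0.25. The 4 are 33.3% of the list, beside 7.36% of all genes that rose. The list's median was 0.18. The count was 2 without any one of the 3 control arrays, and 1 with the 18S covariate.

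Of 25 other named long noncoding RNAs outside the host-gene rule, 2 rose and 2 fell. Both extremes lay beyond the largest host-gene difference: LINC00973 fell by 1.79 (SE 0.18, adjusted p = 0.000431), HCP5 rose by 1.51 (SE 0.136, adjusted p = 0.000232) and LINC01133 rose by 0.76, while DLEU1 fell by 0.26. The lists were counted beside 7.36% of all genes higher and 6.12% lower.

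A list of protein-coding partners and neighbours held 14 measured genes, of which 3 fell, SLC3A2 by 0.51, RCC1 by 0.45 and MYC by 0.32 (SE 0.0856, adjusted p = 0.0376), and 0 rose in limma (3 in either direction at unadjusted p under 0.05). The 3 are 21.4% of the list, beside 6.12% of all genes that fell. The count was 1 without control array 1, 2 or 3 or cocoa array 2, and 2 without cocoa array 1. SLC3A2 and RCC1 neither overlap nor lie next to any member found in RefSeq. RCC1 was also counted above among the genes that carry small nucleolar RNAs. MYC lies next to PVT1 and is known to drive MIR17HG, neither of which passed. USP46 (−0.01), DLK1 (−0.11), ZBTB37 (0.12) and MORC2 (−0.07) did not pass. Over all members, 42 protein-coding genes that overlap a member or lie next to one in the RefSeq order were tested, of which 5 fell, 4 rose and 33 did not pass. Over all genes tested, 6.12% fell and 7.36% rose. MATR3, a nuclear matrix protein gene that overlaps SNHG4, fell by 0.66 (SE 0.139, adjusted p = 0.0136), beside −0.50 in SNHG4. Next to DANCR in the RefSeq order lie ERVMER34-1, which fell by 0.49 (SE 0.0756, adjusted p = 0.00335), and USP46-DT at 0.22 (adjusted p = 0.198). Next to SNHG19 lie RAB26, which rose by 0.69 (SE 0.0687, adjusted p = 0.000412), opposite to SNHG19, and TRAF7 at −0.06 (adjusted p = 0.667). BTG4, which overlaps MIR34BHG, was at 0.03 (adjusted p = 0.836), and SLAMF8, which overlaps SNHG28, at −0.05 (adjusted p = 0.751).

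**Figure D4:**
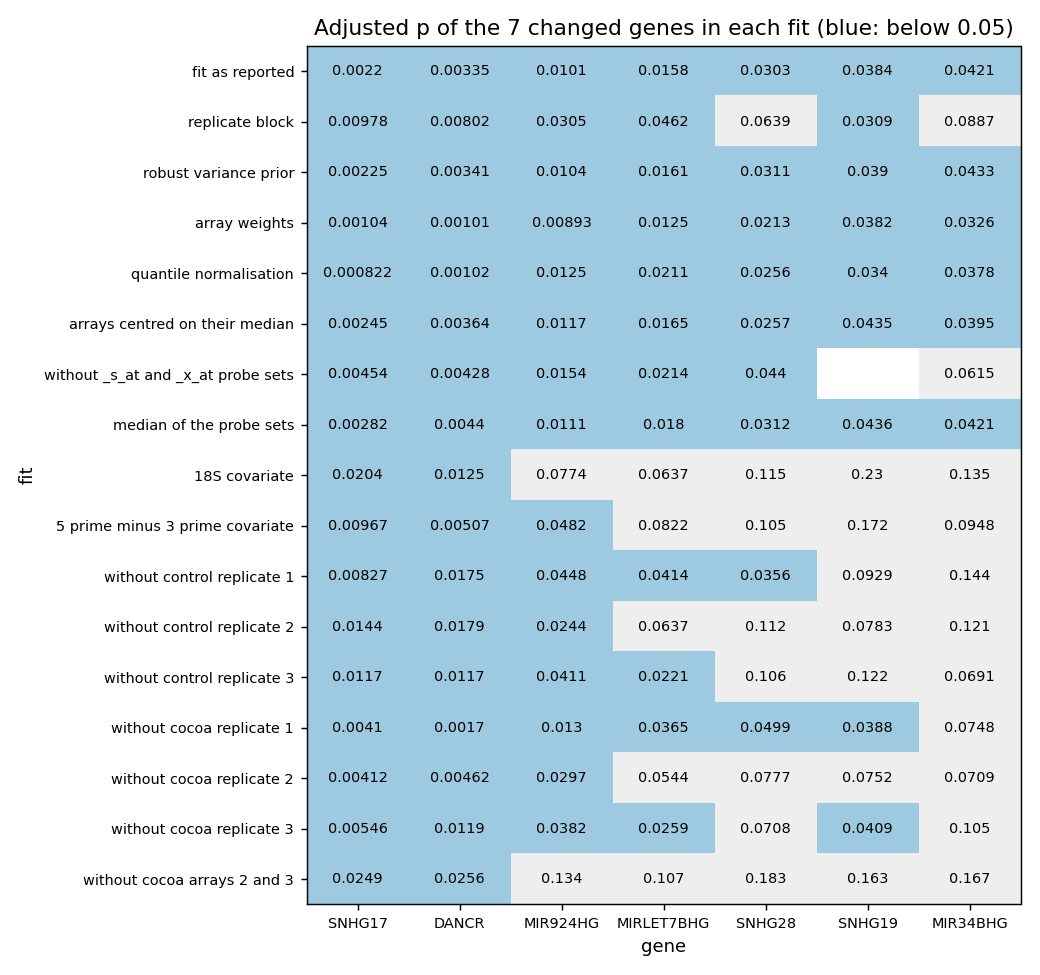
Adjusted p-values printed in each cell for the 7 changed host genes (columns) under the fit as reported and 16 alternatives (lines), with blue cells below 0.05, grey cells above it and the blank cell where SNHG19 had no probe set left. SNHG17 and DANCR are blue in all 17 lines, and MIR34BHG is grey in all 6 that leave out 1 array.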

How the data were processed

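Total RNA of 6 HT29 cultures (3 cocoa, 3 control) was hybridised to Affymetrix U133 Plus 2.0 arrays, 1 per culture, per the labels' protocols. The authors made the log2 values with RMA, per the submitters' processing notes, and named GeneSpring GX in the series text; versions, annotation and filters are not stated in these sources. The authors' deposited log2 table (54675 probe sets, values from −2.42 to 4.02) is centred per probe set (largest absolute median 5.0e-07). That the base is 2 follows from RMA, as the table does not name it. The number of arrays limits precision.

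The 62 control probe sets were left out. Of 54613 others, 41091 carried 1 symbol, 1801 several and 11721 none in the platform annotation. Genes were named from 1-symbol probe sets and averaged (19775 genes). limma 3.58.1 (R 4.3.3; lmFit, eBayes) compared cocoa with control, and Benjamini-Hochberg adjustment was made over all genes or all 54613 probe sets, threshold 0.05. The code was tested on simulated data. All members were named; changed members and the 6 others of largest difference have per-array values; of each list up to 4 changed genes were named by difference. TUG1 and MIR17HG were added after their values were seen, as were MATR3, UPF1, UPF2, DROSHA, DICER1 and the further members given with a value. Members and lists were chosen with earlier results of these data known. Same-numbered arrays were not treated as pairs: their deviations from the group means correlated at −0.1204, −0.0089 and −0.0031. Such values cannot show whether same-numbered cultures were set up together. Alternatives covered the block, normalisation, probe sets, array weights, 18S and 5′ minus 3′ covariates and leaving out arrays. Sequences are from RefSeq tables (GRCh38.p14), which held promoters for 43 members; 12 had none there.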

Additional observations from a re-analysis of the deposited data

Results flagged for a closer look

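Probe sets that list a host-gene symbol beside other symbols were outside the gene-level comparison. Of 78 such probe sets 8 (10.3%) were lower with cocoa at adjusted p from 0.00593 to 0.0442 (limma, Benjamini-Hochberg over all 54613 probe sets), by 0.42 to 0.66 on the log2 scale, and 0 were higher (2 higher and 25 lower at unadjusted p under 0.05; no other tool was run). Over all 54613 probe sets 7.98% passed, with 3.30% lower and 4.68% higher. The groups did not overlap in 32 of the 78 (41.0%), beside 27.6% of all probe sets. The 8 list 8 different host-gene symbols. Of those listing an SNHG symbol 5 of 31 fell, of those listing a microRNA host 2 of 28, and of the other 19 just 1. What drew attention to them is a signal in data that the comparison of single genes does not use. Which of the listed genes each one reads is unknown, so none is named here. With the 18S signal as a covariate 0 passed in limma (16 at unadjusted p under 0.05), with the 5′ minus 3′ signal 3, and with the replicate number as a block 3. With 1 array left out 2 to 11 passed, and with array weights 16.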

How the results depend on the processing

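The fit as reported gave 7 changed host genes, 2666 changed genes in all and 37 distinct changed genes in the lists. With the 18S signal as a covariate these were 2, 1103 and 10, and with the 5′ minus 3′ signal 4, 1411 and 12. A count can include host genes outside the 7. With the 5′ minus 3′ signal it did, as only SNHG17, DANCR and MIR924HG of the 7 passed. Leaving out 1 array gave 3 to 8 host genes, 1315 to 2881 genes and 15 to 41 list genes. The lowest counts were 3 host genes without control array 2 or cocoa array 2 and 4 without control array 3. Without cocoa arrays 2 and 3 together, chosen after seeing the data, 2 host genes (SNHG17, adjusted p = 0.0249, and DANCR, 0.0256), 845 genes and 11 list genes passed, with the lone cocoa array taken to vary like the controls. Without _s_at and _x_at probe sets 5, 1813 and 17 passed over 17098 genes and 52 members, fewer being tested. With the replicate block 5, 1947 and 19 passed, and SNHG28 (adjusted p = 0.0639) and MIR34BHG (0.0887) did not; no array correlated best with its own number. Array weights gave 9, 3301 and 41, the median of probe sets 8, 2526 and 35, quantile normalisation 7, 2684 and 35, centring 7, 2675 and 32, and the robust prior 7, 2639 and 34. At an adjusted p under 0.01, or at 1.5-fold or more, 2 host genes remain. EPB41L4A-AS1 turned to 0.009 (adjusted p = 0.975) without _s_at and _x_at probe sets. Of the other values of single genes, 186 kept their direction and side of the threshold, 33 lost the test and 3 gained it. The cause of these shifts was not tested.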
